A study of Mus musculus with 72 samples.

Results

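Gene expression at time point 5 was compared with that at time point 2 in the epidermis of mice without a working clock, named Bmal1-stopFL (KO) in the labels. The comparison rests on 8 of 72 RNA-seq libraries, 4 per time point, chosen by the labelled genotype and time point alone. Each library was made from the interfollicular epidermis, the skin epithelium between the hair follicles, of 1 female C57BL/6 mouse 8 weeks old. All mice were raised under 12 h of light a day with free access to chow and then kept in constant darkness from 7 weeks of age, for 156 to 176 h in all. The labels number the time points from 1 to 6 without giving hours; if their spacing was even at 4 h, time points 2 and 5 lay 12 h apart. In KO mice a stop cassette blocks the clock gene Arntl (the gene of BMAL1) in the whole body, and no Cre is present. The WT mice, labelled K14-Cre (WT), carry the Cre transgene under the keratin 14 promoter and an intact Arntl. The RE mice, labelled Bmal1-stopFL/K14-Cre (RE), carry both, so that Cre removes the cassette in keratinocytes while other cells stay blocked. KO and WT therefore differ in the Cre transgene as well as in Arntl.

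The circadian clock is a feedback loop in which BMAL1 and CLOCK bind E-box elements and switch on Per, Cry and Rev-erb genes, whose proteins then repress the loop. In epidermis the clock is known to time cell division and to separate it from phases of oxidative metabolism. In mice without BMAL1 the loop is known to stand still. The labels record no feeding, activity or body temperature of the animals. The design text of the series names its question as what the epidermal clock does with and without clocks in other tissues.

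Total counts ran from 29.2 M to 32.8 M (M, 1e6 counts) at time point 2 and from 29.1 M to 38.5 M at time point 5. Mitochondrial transcripts took 2.36 to 2.91% and 2.21 to 3.12% of counts. The keratinocyte genes Krt5, Krt14, Krt1, Krt10 and Trp63 were abundant in all 8 libraries, with Krt5 at 8602 to 11190 CPM (a gene's count scaled to a library of 1e6 counts). Arntl, the targeted gene, lay between 26.1 and 35.1 CPM in all 24 KO libraries, and its log2 fold change between the 2 time points was -0.01 (SE 0.16, adjusted p = 0.986). Its mean over time points differed from that of WT by -0.60 log2 units. At time points 3 and 4 the KO mean was above that of WT (31.28 and 31.63 against 22.85 and 25.52 CPM). At the other time points it was below. Replicate 2 of time point 5 stood apart from the other 7 libraries: the first principal component of log2 CPM, which held 28.8% of the variance among the 8, placed it at 0.77, and the others between -0.35 and 0.26. That library also had 0.0555 CPM of Trdc, the constant chain of the T cell receptor of epidermal T cells, which ran from 5.94 to 19.3 CPM in the other 7.

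Between the 2 time points 284 of 18538 genes differed at an adjusted p under 0.05, which is 1.53% of the genes tested. Of these, 220 were higher (1.19%) and 64 lower (0.345%) at time point 5. The changes were small. The median log2 fold change was 0.43 among the higher genes and -0.40 among the lower genes, and 30 genes changed by 2-fold or more, 26 upward and 4 downward. In 252 of the 284 genes the 4 values of one time point all lay beyond the 4 values of the other, against 11.5% of all genes tested (6.09% upward and 5.43% downward). The size of the set depended on single animals. Without replicate 2 of time point 5 it fell to 42 genes (32 higher, 10 lower), without replicate 2 of time point 2 to 33, without replicate 3 of time point 2 to 67, without replicate 3 of time point 5 to 86 and without replicate 4 of time point 2 to 142, while without replicate 4 of time point 5 it grew to 605. With the 8 libraries fitted alone, 16 genes were called. All 284 genes kept their direction in each of the 8 fits that left out 1 library, as genes chosen on these same libraries mostly would. The call was kept in all 8 fits by 25 genes, 21 higher and 4 lower.

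Several of the increased genes encode proteins that process RNA in the nucleus. They were picked out after their values were seen and are described without a test of the group. Pnn, which encodes pinin, a protein of the exon junction complex and of cell junctions, had 109, 112, 109 and 122 CPM at time point 2 and 135, 162, 145 and 139 CPM at time point 5. All 4 later values exceeded all 4 earlier ones, and the change was 1.29-fold (log2 fold change 0.37, SE 0.05, adjusted p = 2.01e-05). Pabpn1, whose product binds new poly(A) tails in the nucleus, had 29.7, 25.7, 27.7 and 31.6 CPM and then 47.2, 59, 59.5 and 47.2 CPM. The groups did not overlap and the level rose 1.86-fold (log2 fold change 0.89, SE 0.13, adjusted p = 1.45e-05). The RNA-binding protein gene Hnrnph3 went from 37.8, 36.6, 34.5 and 40.6 CPM to 48.3, 59.9, 51.6 and 48.7 CPM, a rise of 1.4-fold without overlap (log2 fold change 0.48, SE 0.09, adjusted p = 0.00257). Its relative Hnrnpa2b1, another RNA-binding protein gene, rose 1.28-fold (log2 fold change 0.36, SE 0.07, adjusted p = 0.00633). These 4 genes kept their call whichever library was left out, with adjusted p of at most 0.00271, 0.000603, 0.0427 and 0.0307. Pnn lies on chromosome 12 (59066884 to 59073998), Pabpn1 on chromosome 14 (54892500 to 54898169), Hnrnph3 on chromosome 10 (63014664 to 63024217) and Hnrnpa2b1 on chromosome 6 (51460932 to 51469894) of GRCm38. Of the exon bases of Pabpn1, 30.6% are shared with the gene Gm20521 on the same strand, so part of its reads cannot be assigned to it alone.

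**Figure D1:**
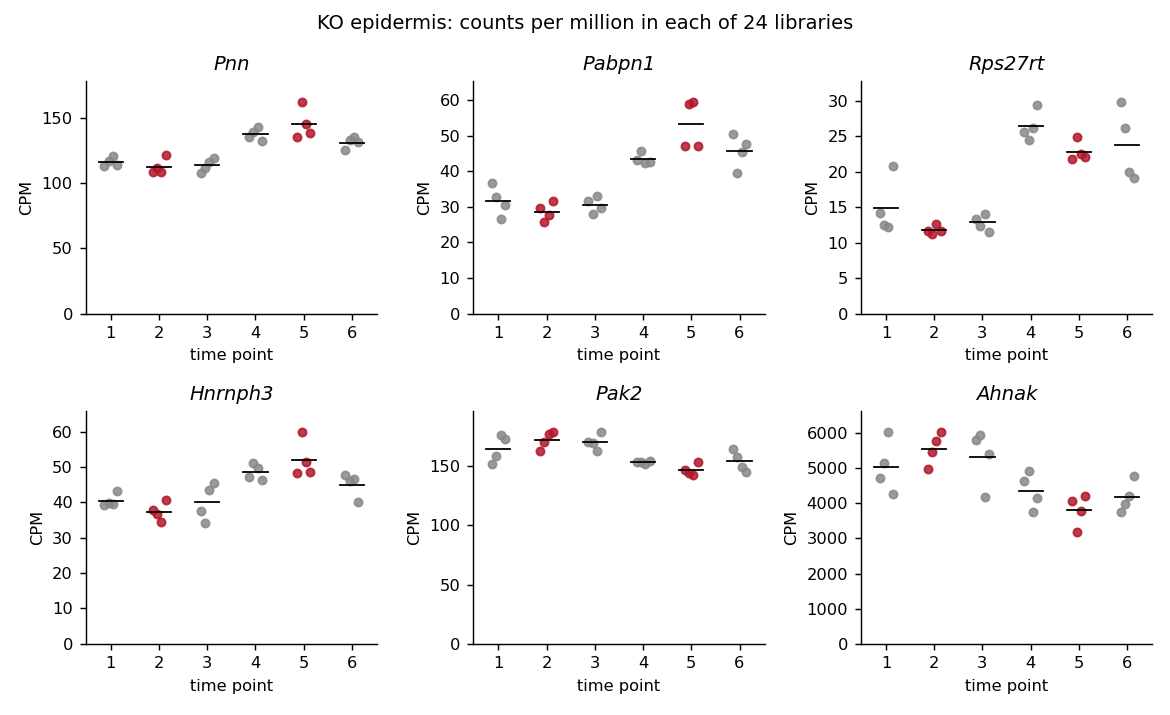
CPM of 6 genes in each of the 24 KO libraries by time point (points, 4 animals each; black lines are means; red marks the compared time points 2 and 5). Pnn, Pabpn1, Rps27rt and Hnrnph3 were higher in all 4 animals of time point 5 than in all 4 of time point 2, and Pak2 and Ahnak were lower; all axes start at 0.

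Further genes of the same kind passed the test on all libraries and lost it without 1 or more animals. Luc7l3, a component of the U1 small nuclear ribonucleoprotein, had 121, 118, 119 and 138 CPM and then 172, 228, 213 and 171 CPM, so that each animal of time point 5 exceeded each of time point 2 (1.58-fold, log2 fold change 0.66, SE 0.13, adjusted p = 0.0045). The arginine and serine rich protein gene Rsrp1 rose 1.61-fold (log2 fold change 0.69, SE 0.15, adjusted p = 0.012), and Arglu1, a splicing modulator, rose 1.35-fold (log2 fold change 0.43, SE 0.10, adjusted p = 0.012). Clasrp, which encodes a partner of CLK kinases, rose 1.34-fold (log2 fold change 0.42, SE 0.08, adjusted p = 0.0045), and the kinase gene Clk2 itself rose 1.22-fold (log2 fold change 0.29, SE 0.08, adjusted p = 0.0435). Snrnp70, the defining protein gene of the U1 particle, rose 1.23-fold (log2 fold change 0.30, SE 0.06, adjusted p = 0.00837). Without replicate 2 of time point 5 the adjusted p of Luc7l3, Rsrp1, Arglu1, Clk2 and Snrnp70 became 0.059, 0.0735, 0.106, 0.262 and 0.0861, and without replicate 2 of time point 2 that of Clasrp became 0.0516. By symbol family, 3 of 11 Srsf genes rose and none fell: Srsf1, Srsf2 and Srsf5, with log2 fold changes of 0.36, 0.36 and 0.30 and highest leave-one-out adjusted p of 0.19, 0.0745 and 0.183. Among Snrp and Snrnp genes 3 of 19 rose, among Hnrnp genes 2 of 20, among exosome subunits (Exosc) 2 of 9, and none of 36 Rbm genes and none of 9 Sf3 genes passed, against 1.19% of all genes. U2af1l4, a U2 auxiliary factor gene whose rise of 1.33-fold held in all leave-one-out fits (adjusted p at most 0.0427), shares 94.3% of its exon bases with the gene Gm49396 on the same strand and is uncertain. Snrpf shares 65.9% of its exon bases with Ccdc38 on the opposite strand.

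Promoters of genes that moved in KO were searched for the E-box CACGTG, bound by BMAL1 and CLOCK, for the heat shock motif GAANNTTC, the D-box TTATGTAA and the cyclic AMP motif TGACGTCA, on both strands. RefSeq windows of 300 bases (250 before to 50 after the gene start, GRCm38.p6) were found for 149 of 179 protein coding genes called higher and 35 of 54 called lower. An E-box was present in 21 of 176 windows of the higher genes (11.9%), in 8 of 54 windows of the lower genes (14.8%) and in 72 of 600 windows of genes called in WT (12.0%), against 7.15% of all 32851 windows. The median GC content was 61.3, 63.0 and 60.7% in these sets and 52.7% in all windows. The shares of the other motifs in windows of the higher genes were 5.68, 1.14 and 2.27%, against 7.86, 0.938 and 1.79% of all windows. The windows of 3 genes that rose in KO are shown with that of Cry1, a clock gene described further on that was called in WT and not in KO; capitals mark an E-box. Pnn lies at chr12:59066669-59066968 on the plus strand, Pabpn1 at chr14:54893893-54894192 on the plus strand, Clk2 at chr3:89164545-89164844 on the plus strand and Cry1 at chr10:85185005-85185304 on the minus strand.
Pnn: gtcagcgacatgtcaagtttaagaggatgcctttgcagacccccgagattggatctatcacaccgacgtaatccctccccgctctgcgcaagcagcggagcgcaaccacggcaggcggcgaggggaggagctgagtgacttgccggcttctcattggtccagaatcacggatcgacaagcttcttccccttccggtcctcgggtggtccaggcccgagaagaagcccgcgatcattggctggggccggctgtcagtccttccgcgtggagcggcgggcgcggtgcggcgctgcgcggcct
Pabpn1: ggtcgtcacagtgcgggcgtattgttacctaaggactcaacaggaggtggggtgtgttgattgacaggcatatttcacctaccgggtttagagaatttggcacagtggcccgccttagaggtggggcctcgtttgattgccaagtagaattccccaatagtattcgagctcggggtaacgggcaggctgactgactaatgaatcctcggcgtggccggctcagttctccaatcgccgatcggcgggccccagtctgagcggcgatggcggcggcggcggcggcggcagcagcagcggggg
Clk2: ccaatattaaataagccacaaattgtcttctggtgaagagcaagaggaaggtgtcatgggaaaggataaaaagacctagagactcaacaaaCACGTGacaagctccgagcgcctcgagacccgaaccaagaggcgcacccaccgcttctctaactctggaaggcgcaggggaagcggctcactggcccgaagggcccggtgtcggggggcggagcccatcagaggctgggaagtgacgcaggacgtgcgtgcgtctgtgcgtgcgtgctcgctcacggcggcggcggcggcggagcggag
Cry1: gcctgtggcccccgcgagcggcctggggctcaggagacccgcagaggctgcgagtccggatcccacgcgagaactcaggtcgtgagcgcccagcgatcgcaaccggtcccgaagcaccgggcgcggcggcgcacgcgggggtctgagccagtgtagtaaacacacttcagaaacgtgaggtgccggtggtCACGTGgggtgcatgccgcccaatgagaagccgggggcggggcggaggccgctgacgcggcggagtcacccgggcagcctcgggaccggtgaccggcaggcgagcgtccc
None of the motifs was found in the windows of Pnn and Pabpn1. Clk2 holds 1 E-box and Cry1 holds 1. A match or its absence in these windows is a description of the letters alone.

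The smallest adjusted p-values belonged to copies of ribosomal protein genes, Rps27rt and Rps15a-ps4. Rps27rt, a single-exon copy of Rps27, lies on chromosome 9 (114982366 to 114982739, minus strand), while Rps27 with its 4 exons lies on chromosome 3 (90212522 to 90213651). The coding sequence of both, 255 bases read from GENCODE transcripts of GRCm38 and identical at every base, is shown because it bears on which gene the reads came from:
Rps27rt and Rps27: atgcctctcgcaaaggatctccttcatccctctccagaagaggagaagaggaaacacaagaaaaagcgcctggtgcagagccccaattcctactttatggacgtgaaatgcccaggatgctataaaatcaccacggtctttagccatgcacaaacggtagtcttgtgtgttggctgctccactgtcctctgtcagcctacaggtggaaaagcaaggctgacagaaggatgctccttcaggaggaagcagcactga
Rps27rt had 11.6, 11.2, 12.6 and 11.6 CPM at time point 2 and 21.9, 24.9, 22.6 and 22.1 CPM at time point 5, a 1.94-fold rise without overlap (log2 fold change 0.96, SE 0.12, adjusted p = 3.24e-07; adjusted p at most 9.22e-06 in the leave-one-out fits). Rps27 had 314, 311, 348 and 317 CPM and then 402, 471, 383 and 347 CPM; the groups overlapped and the difference did not pass (log2 fold change 0.31, SE 0.12, adjusted p = 0.165). How multimapping reads were counted is not stated by the sources, so the reads of the 2 genes cannot be told apart over this sequence.

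Other copies of ribosomal and related genes were also called, and their reads are uncertain for the same reason. Rps15a-ps4 had 12.2, 12.4, 12.5 and 14.2 CPM and then 18.9, 24.8, 25.1 and 24.7 CPM (log2 fold change 0.86, SE 0.10, adjusted p = 3.24e-07), while the parent Rps15a had a log2 fold change of 0.17 (SE 0.14, adjusted p = 0.599). Rpl31-ps14 had 23.2, 22.9, 23.7 and 23.9 CPM and then 35, 42, 37.1 and 33.3 CPM (log2 fold change 0.65, SE 0.09, adjusted p = 6.52e-06), against 0.12 (SE 0.10, adjusted p = 0.622) for Rpl31. Tpt1-ps5, by contrast, fell (log2 fold change -0.71, SE 0.13, adjusted p = 0.00257) beside 0.04 (SE 0.09, adjusted p = 0.886) for Tpt1. In each of these pairs the copy passed the test and the parent did not. Pseudogenes of all kinds were 31 of the 284 called genes (10.9%) and 8.63% of the genes tested, and they made up 10 of the 25 genes that kept their call in all leave-one-out fits.

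Genes of the cytoplasmic ribosome were mostly slightly higher. Of 82 ribosomal protein genes, 71 had a positive log2 fold change, 7 were called higher and 1 lower; the median was 0.13. Over all genes tested 49.8% were positive, 1.19% were called higher and 0.345% lower, and the median was -0.0011. Rpl18 went from 22.8, 19.8, 25.4 and 21.2 CPM to 28.7, 28.1, 31.9 and 27.5 CPM (log2 fold change 0.38, SE 0.08, adjusted p = 0.00633), without overlap. Rpl7a, Rpl11, Rpl12 and Rpl13 rose with log2 fold changes of 0.53, 0.63, 0.48 and 0.55. Rpl39 was the exception and fell from 47.4, 49.4, 50.1 and 50 CPM to 31.4, 39.9, 36.7 and 33 CPM (log2 fold change -0.48, SE 0.13, adjusted p = 0.0311). Without replicate 2 of time point 5, 2 ribosomal protein genes were called, 59 of 82 were positive and the median was 0.08; the adjusted p of Rpl7a, Rpl11, Rpl12 and Rpl13 was then 0.133, 0.12, 0.281 and 0.252. Rpl18 lost its call without replicate 2 of time point 2 (adjusted p = 0.0516) and Rpl39 without replicate 1 of time point 5 (adjusted p = 0.0971). Ribosomal protein genes are known for their many processed copies in the genome, so these counts are uncertain too.

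Nuclear genes of the mitochondrial respiratory chain showed a similar small shift. Of 74 genes, 66 were positive, 3 were called higher and none lower, with a median of 0.12, against 49.8% positive and 1.19% called higher over all genes. Those called were Cox8a and Cox5a, subunits of cytochrome c oxidase, and Ndufb2, a subunit of complex I. Cox8a had 67.3, 59, 52.2 and 53.5 CPM and then 91.8, 107, 82.7 and 73.6 CPM, and the groups did not overlap (log2 fold change 0.61, SE 0.16, adjusted p = 0.0386). The log2 fold change was 0.51 for Cox5a (adjusted p = 0.0491) and 0.36 for Ndufb2 (adjusted p = 0.0489). Without replicate 2 of time point 5 none of the 74 genes was called, and the median was 0.07; Cox8a and Cox5a then had adjusted p of 0.223 and 0.281, and Ndufb2 had 0.2 without replicate 2 of time point 2. The 13 genes encoded by mitochondrial DNA gave no call and leaned the other way, with 3 positive and a median of -0.14. Of 77 genes of the mitochondrial ribosome, 69 were positive and 2, Mrps17 and Mrps34, rose, against the same shares over all genes (log2 fold changes 0.27 and 0.70; adjusted p = 0.15 and 0.206 without replicate 2 of time point 5).

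**Figure D2:**
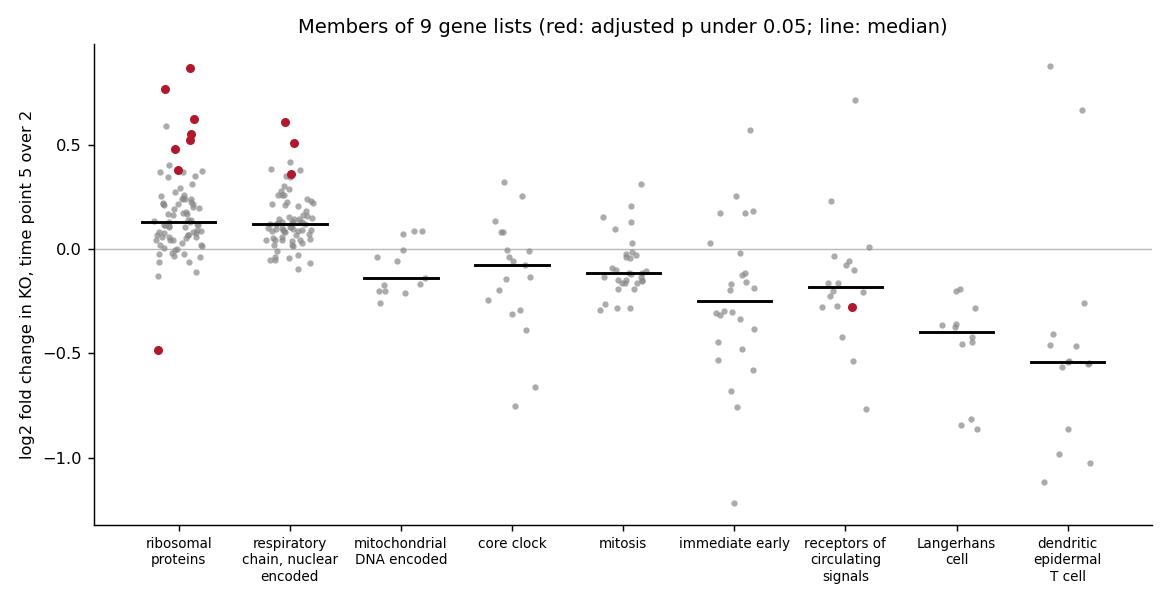
Log2 fold change between time points 5 and 2 in KO for each tested member of 9 gene lists (points; red marks adjusted p under 0.05; black lines are medians). Ribosomal protein and nuclear respiratory chain genes lie mostly above 0 with medians of 0.13 and 0.12, the core clock list has no red point, and Langerhans cell and dendritic epidermal T cell markers lie mostly below 0.

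Among the other increases, 6 protein coding genes kept their call in each leave-one-out fit. Gripap1, which encodes an endosomal scaffold protein, had 42.7, 45.8, 45.5 and 50.1 CPM and then 55.6, 63.9, 58.9 and 55.8 CPM (1.27-fold, log2 fold change 0.35, SE 0.05, adjusted p = 0.000102). Zfp692, a zinc finger gene, had 52.7, 55, 59.1 and 56.8 CPM and then 81.4, 109, 87.6 and 70.1 CPM (1.56-fold, log2 fold change 0.64, SE 0.10, adjusted p = 0.000231). Both were higher in every animal of time point 5. Preb, the exchange factor that starts COPII vesicle budding from the endoplasmic reticulum, went from 55.3, 51.4, 53 and 57.6 CPM to 66, 79.2, 69.5 and 61.4 CPM (1.27-fold, log2 fold change 0.35, SE 0.06, adjusted p = 0.00115). Dus1l, a tRNA dihydrouridine synthase gene, rose 1.33-fold (log2 fold change 0.42, SE 0.07, adjusted p = 0.000534). Srp19, a protein of the signal recognition particle, and Cbx1, the heterochromatin protein HP1 beta, also held, with log2 fold changes of 0.41 and 0.32. In these 6 genes the highest leave-one-out adjusted p was 0.00517, 0.0112, 0.0336, 0.0112, 0.0288 and 0.0446.

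Further increases were found in weakly expressed genes. Scand1, a SCAN domain gene, had 2.75, 1.47, 1.13 and 1.12 CPM and then 4.56, 5.13, 3.35 and 3.92 CPM (2.62-fold, log2 fold change 1.39, SE 0.37, adjusted p = 0.038), and 40.4% of its exon bases lie opposite Cnbd2. Gm10382 rose 2.73-fold (log2 fold change 1.45, SE 0.36, adjusted p = 0.0243) and lies opposite another gene over 41.0% of its exon bases. Tvp23a, Rab4b, Zfp771, Fbxl15 and Zfp579 rose with log2 fold changes of 1.03, 0.95, 0.92, 0.91 and 0.79; Rab4b shares 85.2% of its exon bases with Gm21983 on the same strand. The highest leave-one-out adjusted p of these 7 genes, in the same order, was 0.184, 0.131, 0.117, 0.0502, 0.128, 0.12 and 0.0516, from the fit without replicate 2 of time point 5 for Scand1, Gm10382, Tvp23a and Zfp771, without replicate 2 of time point 2 for Rab4b and Zfp579 and without replicate 3 of time point 2 for Fbxl15. Ppif, the cyclophilin of mitochondria, was called with 1 high animal (log2 fold change 0.79, adjusted p = 0.0491): it had 18.4, 17, 16.2 and 16.7 CPM at time point 2 and 15.7, 64.5, 16.5 and 21.6 CPM at time point 5, and its adjusted p without replicate 2 of time point 5 was 0.924. Histone genes Hist1h1b and Hist4h4, which are replication dependent, were called higher (log2 fold changes 2.28 and 1.90) at below 1 CPM, and their adjusted p without the same animal was 0.1 and 0.106.

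Some of the genes called lower encode proteins of the cell cortex or of cell adhesion; they were grouped after their values were seen, with no test of the group. Pak2, a kinase that acts on the actin cytoskeleton, had 163, 169.9, 177 and 178 CPM and then 146, 144, 142 and 154 CPM. The 4 later values lay below the 4 earlier ones, the level fell to 0.852 of the earlier one (log2 fold change -0.23, SE 0.05, adjusted p = 0.00749), and the call held in all leave-one-out fits (adjusted p at most 0.0496). Rdx, which encodes radixin, a linker of actin to the plasma membrane, had 184, 187, 193 and 179 CPM and then 153, 128, 153 and 174 CPM (0.819 of the earlier level, log2 fold change -0.29, SE 0.06, adjusted p = 0.00749). Ahnak, a very large scaffold protein of the plasma membrane, fell from 4971, 5454, 5775 and 6015 CPM to 4062, 3174, 3786 and 4221 CPM, again without overlap (0.686 of the earlier level, log2 fold change -0.54, SE 0.12, adjusted p = 0.0124). Cdh1, the E-cadherin gene of adherens junctions, had 1020, 1075, 1124 and 1061 CPM and then 918, 849, 908 and 961 CPM (log2 fold change -0.24, SE 0.06, adjusted p = 0.0305). Cd47, Cd109, Dag1 (dystroglycan) and Iqgap1 fell with log2 fold changes of -0.33, -0.28, -0.24 and -0.27. Cdh1, Cd109, Dag1 and Iqgap1 were named after their values were seen. Without replicate 2 of time point 5 the adjusted p of Rdx, Ahnak, Cdh1, Cd109, Dag1 and Iqgap1 was 0.139, 0.12, 0.202, 0.223, 0.302 and 0.277, and that of Cd47 was 0.0776 without replicate 2 of time point 2.

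The other decreases named here have mixed roles, transcription factors among them. Mnt, a partner of MAX that opposes MYC, had 62.1, 59.9, 76.9 and 67.4 CPM and then 41.9, 42.1, 43.4 and 48 CPM. No value overlapped (0.659 of the earlier level, log2 fold change -0.60, SE 0.13, adjusted p = 0.00781), and its adjusted p was 0.0521 without replicate 3 of time point 2. Sp2 and Sp1, zinc finger factors that bind GC boxes, fell with log2 fold changes of -0.31 and -0.27. Foxp1, Tead1 (a partner of YAP), Nfatc1 and Setbp1 fell with log2 fold changes of -0.53, -0.50, -0.57 and -0.84. Nr3c1, the glucocorticoid receptor gene, went from 177, 167, 171 and 163 CPM to 148, 126, 136 and 148 CPM (log2 fold change -0.28, SE 0.07, adjusted p = 0.0358). Sgms2, which makes sphingomyelin, went from 15.7, 18.9, 16.3 and 15.3 CPM to 7.45, 6.99, 10.9 and 12.4 CPM (0.571 of the earlier level, log2 fold change -0.81, SE 0.18, adjusted p = 0.0124). Fam129a, the most strongly reduced of the called protein coding genes above a mean log2 CPM of 1, had 10.4, 11.4, 6.77 and 8.98 CPM and then 5.29, 2.86, 5.62 and 6.12 CPM (log2 fold change -0.92, SE 0.19, adjusted p = 0.00749). The bone morphogenetic protein receptor gene Bmpr1a and the tumour suppressor gene Apc fell with log2 fold changes of -0.23 and -0.34, and Sh3rf1, Prag1, Dip2b and Gm3550 with -0.55, -0.56, -0.50 and -0.53. Without replicate 2 of time point 5 none of Sp1, Foxp1, Tead1, Nfatc1, Setbp1, Nr3c1, Sgms2, Fam129a, Bmpr1a, Apc, Sh3rf1 and Prag1 was called, with adjusted p from 0.09 to 0.302; Sp2 had 0.0658 without replicate 3 of time point 2, Dip2b 0.221 without replicate 4 of time point 2 and Gm3550 0.151 without replicate 3 of time point 5.

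The clock genes gave no called time difference in KO. None of the 19 core clock genes was called, against 1.53% of all genes, and DESeq2 and limma voom called none either. At an unadjusted p under 0.05 in edgeR there was 1, against 15.7% of all genes. The standard errors come from the spread within all 18 groups, WT and RE included. For Dbp the standard error was 0.46, beside 4.97 ± 0.80 and 5.46 ± 0.73 CPM in KO (mean ± SD, n = 4). For Per3 it was 0.29, beside 19.9 ± 2.2 and 23.7 ± 2.1 CPM. Small changes of clock genes in KO could therefore go uncalled, and these shares do not show that the genes were constant. Cry1, a repressor of the loop, had 97.2, 101, 99.1 and 119.5 CPM and then 104, 117, 106 and 114 CPM, with overlapping groups. In WT the same gene had 11.1 ± 2.39 CPM and 54.8 ± 9.33 CPM (mean ± SD, n = 4). Nr1d1, the Rev-erb alpha gene, ran from 3.92 to 9.26 CPM in all 8 KO libraries and fell in WT from 331 ± 62 to 54 ± 25.5 CPM. In WT 5 of the 19 were called, against 3.38% of all genes, and 3 of the 19 passed the test of the difference between KO and WT, Cry1 and Nr1d1 among them (adjusted p = 1.11e-05 and 0.0249). Also called in WT, Per2 and Dbp had log2 fold changes of 2.15 and -1.62 in WT and 0.08 and 0.13 in KO, and their differences did not pass (adjusted p = 0.0842 and 0.128). In KO the widest clock values belonged to Nfil3 (-0.75, SE 0.46) and Bhlhe40 (-0.66, SE 0.47), with standard errors too large for a call.

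Other programmes that can follow the time of day gave few or no calls. No gene passed among 32 mitosis genes (median log2 fold change -0.12), 30 S phase genes (0.00), 20 heat shock genes (0.05), 26 immediate early genes (-0.25), 28 lipid barrier genes (-0.10), 19 basal and 36 differentiated keratinocyte genes (-0.20 and -0.18) and 22 interferon genes (0.45); at an unadjusted p under 0.05 these lists held 0, 0, 3, 3, 2, 1, 2 and 3 genes, and DESeq2 and limma voom called none of their members. The share of all genes under that unadjusted threshold was 15.7%. Without replicate 2 of time point 5 the median of the interferon list was -0.16, with 7 of 22 genes positive. With all libraries 18 of the 22 were positive. The median of the mitosis list was 0.03 without that animal, and the medians of the other lists without a call kept their sign. Among 18 receptors of circulating signals 1 gene, Nr3c1, was called, 15 were negative and 8 had an unadjusted p under 0.05, all 8 lower at time point 5. They included the insulin-like growth factor receptor Igf1r (-0.54, SE 0.19) and the oestrogen receptor Esr1 (-0.77, SE 0.30). Of the 4 genes induced by mild cold, Srsf5 was called, while Rbm3 had a log2 fold change of 0.47 (adjusted p = 0.118) and Cirbp had -0.02 (adjusted p = 0.981).

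Markers of the immune cells of the epidermis gave no call in edgeR or DESeq2 and mostly had negative log2 fold changes; limma voom called 1, Trdc (adjusted p = 0.0255). All 12 Langerhans cell genes were negative, with a median of -0.40, and their summed level ran from 595 to 797 CPM at time point 2 and from 364 to 672 CPM at time point 5. Cd207, which encodes langerin, had 27, 31.2, 22 and 32.6 CPM and then 14.4, 18.3, 8.02 and 22.1 CPM (log2 fold change -0.84, SE 0.49, adjusted p = 0.411). Of 15 markers of dendritic epidermal T cells 13 were negative, and their sums ran from 106 to 126 CPM and from 24.1 to 124 CPM. Trdc had 16.7, 17.6, 18.3 and 19.3 CPM and then 10.8, 0.0555, 5.94 and 16.5 CPM, so that replicate 2 of time point 5 had almost none, and Cd3e had 8.63, 8.66, 10.1 and 11.4 CPM and then 5.39, 0.804, 5.86 and 9.28 CPM. Without that animal the median was -0.61 for the Langerhans cell list and -0.22 for the T cell list. In bulk tissue, fewer cells of a type and less RNA per cell cannot be told apart. Of the other cell types, the defining markers Mlana (melanocytes), Myh4 (muscle), Adipoq (fat), Csf3r (neutrophils), Cpa3 (mast cells), Cd79a (B cells) and Krt20 (Merkel cells) had at most 12 counts in any of the 8 libraries. Others were present. The melanocyte gene Dct had 46 to 125 counts at time point 2 and 59 to 178 at time point 5. The macrophage gene Adgre1 had 85 to 157 and then 69 to 155 counts. The sebaceous gland genes Mc5r and Awat1 had at most 80 and 78 counts in any library. The hair follicle genes Krt71 and Krt35 reached 40 and 24 counts, and the endothelial genes Pecam1 and Cdh5 59 and 23. Each of these was highest in replicate 4 of time point 5. Of 24 hair follicle genes tested 1 was called, lower at time point 5, against 0.345% of all genes. Without replicate 2 of time point 5 it was 0. The muscle gene Acta1 had at most 0.308 CPM at time point 2. It reached 2.36 CPM (91 counts) in replicate 4 of time point 5. The fibroblast gene Col1a1 reached 7.61 CPM in that library (293 counts). The haemoglobin gene Hba-a1 was highest in replicate 3 of time point 5, with 1306 counts. Of 10 muscle genes tested 7 were positive and 3 had an unadjusted p under 0.05, all 3 higher at time point 5, with a median of 0.42 and summed levels of 5.05 to 6.43 CPM and then 6.04 to 11.4 CPM; none was called in edgeR, DESeq2 or limma voom. Nuclear retained RNAs leaned upward, with 7 of 8 positive, no call and summed levels of 3891 to 4268 CPM and then 4682 to 5352 CPM, which did not overlap. Malat1 had a log2 fold change of 0.50 (SE 0.18, adjusted p = 0.126) and Neat1 1.04 (SE 0.42, adjusted p = 0.202). The part of these cell type and nuclear RNA levels in the calls was not tested.

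The libraries of the neighbouring time points mostly gave the same sign of change. None of them is in the 2 groups compared, but all 72 libraries share the estimate of the spread behind the 284 calls. The labels give no batch. Time and any handling of libraries that followed the time points therefore cannot be told apart, here or in the comparisons with RE and WT below. In KO time points 4 and 6 against 1 and 3, 351 genes were called (1.89%), 154 higher (0.831%) and 197 lower (1.06%), and 68 of them were among the 284, all 68 in the same direction (23.9% of the 284 and 19.4% of the 351). Of the 284 genes, 272 (95.8%) had the same sign there, against 65.8% of all genes tested, and the median log2 fold changes were 0.18 for the 220 higher and -0.16 for the 64 lower genes. The count of 351 ranged from 174 without replicate 4 of time point 3 to 534 without replicate 1 of time point 4; it was 196 and 202 without replicates 3 and 4 of time point 1 and 179 and 182 without replicates 3 and 4 of time point 4. The mean log2 CPM of the 220 genes was 4.12 ± 0.08 at time point 1, 3.98 ± 0.05 at 2, 4.12 ± 0.07 at 3, 4.35 ± 0.02 at 4, 4.53 ± 0.13 at 5 and 4.38 ± 0.04 at 6 (mean ± SD, n = 4). All 8 libraries of time points 4 and 6 (4.33 to 4.43) lay above all 8 of time points 1 and 3 (4.02 to 4.21). For the 64 lower genes the means were 5.38, 5.52, 5.40, 5.20, 5.01 and 5.11. Pabpn1 was called in this comparison (log2 fold change 0.52, adjusted p = 0.000353), as were Pnn (0.22, adjusted p = 0.000221), Rps27rt (0.85, adjusted p = 7.6e-11), Rpl39 (-0.67, adjusted p = 1.3e-06) and Pak2 (-0.13, adjusted p = 0.0399). Mnt (-0.23, adjusted p = 0.164) and Hnrnpa2b1 (0.14, adjusted p = 0.159) were not.

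**Figure D3:**
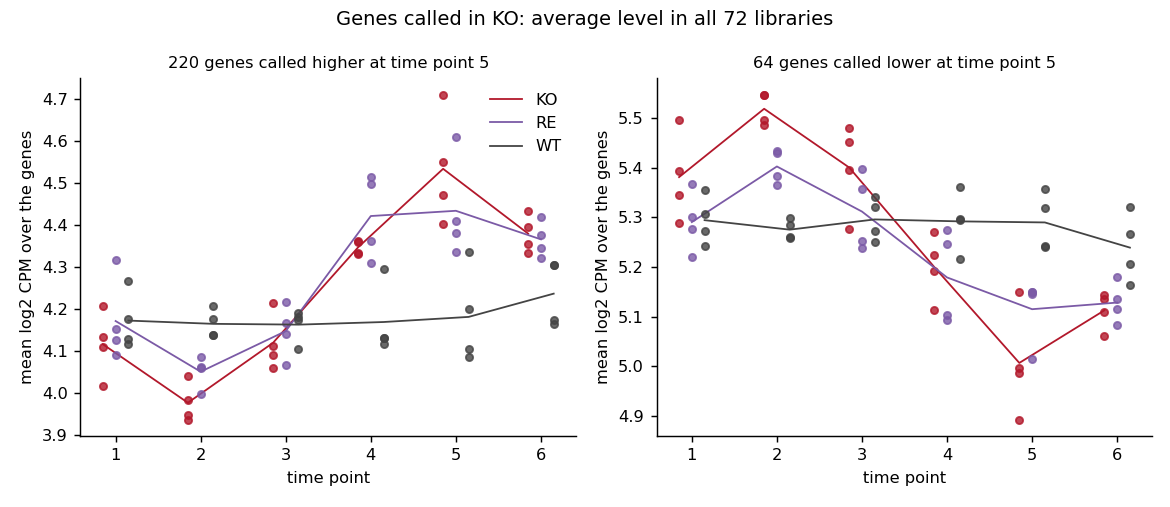
Mean log2 CPM over the 220 genes called higher (left) and the 64 called lower (right) in each of 72 libraries by time point and genotype (points; lines join the means of 4 animals; the axes do not start at 0). The genes were chosen on KO time points 2 and 5; at the other KO time points and in RE they lie low at 1 to 3 and high at 4 to 6 (left), and in WT the means stay between 4.16 and 4.24.

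RE mice, whose Arntl works in keratinocytes and is blocked elsewhere, mostly had the same sign of change between the same time points. Of 183 genes called in RE (0.987%), 137 were higher (0.739%) and 46 lower (0.248%), and 77 were among the 284, all 77 in the same direction (27.1% of the 284 and 42.1% of the 183). Of the 284 genes, 277 (97.5%) had the same sign in RE, against 72.5% of all genes, with medians of 0.31 and -0.27. Pabpn1 rose in RE by 0.72 log2 units (adjusted p = 0.000945), Rps27rt by 0.97 (adjusted p = 1.81e-07) and Gripap1 by 0.29 (adjusted p = 0.00168); Pak2 had -0.27 (adjusted p = 0.00115) and Ahnak -0.50 (adjusted p = 0.0246). Mnt had 0.03 in RE (adjusted p = 0.949). No gene passed the test of the difference between KO and RE in edgeR, 354 (1.91%) had an unadjusted p under 0.05 and DESeq2 called 1, which does not show that the 2 genotypes change alike. The RE count ranged from 79 without replicate 4 of time point 5 to 175 without replicate 2 of time point 5; it was 81, 106, 87 and 97 without replicates 1, 2, 3 and 4 of time point 2 and 113 without replicate 1 of time point 5.

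WT mice shared few of these calls. Between the same time points 627 genes were called in WT (3.38%), 413 higher (2.23%) and 214 lower (1.15%), and 10 of them were among the 284, 9 in the same direction (3.52% of the 284 and 1.59% of the 627). Of the 284 genes, 152 (53.5%) had the same sign in WT, against 48.1% of all genes, and the medians were 0.03 for the 220 and 0.05 for the 64. Across the 18538 genes the rank correlation of the log2 fold changes with those of KO was 0.50 for RE and -0.04 for WT, a description across genes, which are not independent replicates. The test of the difference between KO and WT called 226 genes (1.22%), 107 with a higher value in KO (0.577%) and 119 with a lower one (0.642%), of which 69 were among the 284. Pnn differed from WT, where it had 128 ± 5.92 and 125 ± 2.75 CPM (adjusted p of the difference = 0.00407), as did Pabpn1, with 34.4 ± 1.87 and 34.8 ± 5.51 CPM in WT (adjusted p = 0.00789). Rps27rt (1.54e-05), Mnt (0.00608), Rpl18 (0.0133), Cbx1 (0.0221) and Ahnak (0.0452) also passed that test, with the adjusted p in parentheses. Gripap1, Hnrnph3 and Pak2 did not (adjusted p = 0.296, 0.0901 and 0.0901). Zhx2 (adjusted p = 1.74e-05) and Pdxk, a vitamin B6 kinase gene (adjusted p = 0.000215), passed with no call in KO: Pdxk had 15.9 ± 2.29 and 36.2 ± 3.67 CPM in WT and 17 ± 1.83 and 15.3 ± 2.88 CPM in KO. Leaving out 1 library gave 236 to 457 WT calls: 390, 236 and 358 without replicates 2, 3 and 4 of WT time point 2, and 346 and 342 without replicates 1 and 2 of WT time point 5. For the difference it gave 73 to 439 calls: 94 and 91 without replicates 2 and 3 of WT time point 2, 77 and 88 without replicates 2 and 3 of WT time point 5, 73 and 139 without replicates 2 and 3 of KO time point 2, and 87, 113 and 439 without replicates 2, 3 and 4 of KO time point 5.

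**Figure D4:**
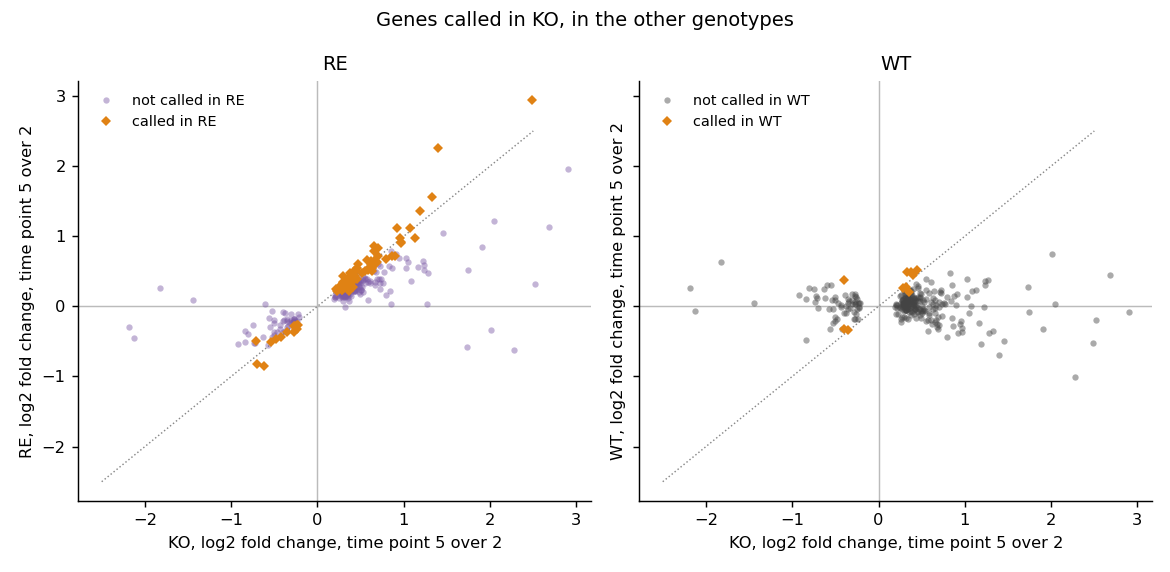
Log2 fold change between time points 5 and 2 of the 284 genes called in KO, plotted for KO against RE (left) and against WT (right); diamonds mark genes also called in that genotype and the dotted line marks equal change. In RE 277 points share the sign of KO and 77 are called; in WT 152 share the sign and 10 are called.

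The changes in KO went with gene length and base composition. Among 11356 protein coding genes above a mean log2 CPM of 1, split into 5 groups of equal size by exon length, the median log2 fold change ran 0.07, 0.02, -0.0003, -0.05 and -0.11 from the shortest to the longest. The RE medians ran from 0.07 to -0.09, those of WT lay between -0.03 and 0.01 and those of KO time points 4 and 6 against 1 and 3 between -0.04 and -0.01. The genes called higher had a median exon length of 4132 bases and 54.1% GC, and those called lower 7469 bases and 47.9% GC, against 4586 bases and 50.1% GC over the 11356. After a correction of each library for length and GC content, a setting added after the data were seen, 358 genes were called and 226 of the 284 stayed among them. Pnn, Pabpn1, Hnrnph3, Rps27rt, Gripap1, Mnt, Ahnak and Rdx kept their call (adjusted p from 2.23e-08 to 0.0256), and 9 of the 77 called genes named here did not: Rpl13, Pak2, Dag1, Iqgap1, Cd109, Nfatc1, Setbp1, Prag1 and Dip2b (adjusted p from 0.0506 to 0.378). How far this trend stems from the samples or from the libraries was not tested. From the shortest to the longest group, each of 2270 to 2272 genes, 32, 43, 48, 33 and 13 were called higher. In the same order 2, 1, 7, 17 and 24 were called lower. Over the 11356 genes 169 were called higher and 51 lower. The lists of ribosomal protein, respiratory chain and mitochondrial ribosome genes were set against all genes tested. They were not compared with genes of like length.

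**Figure D5:**
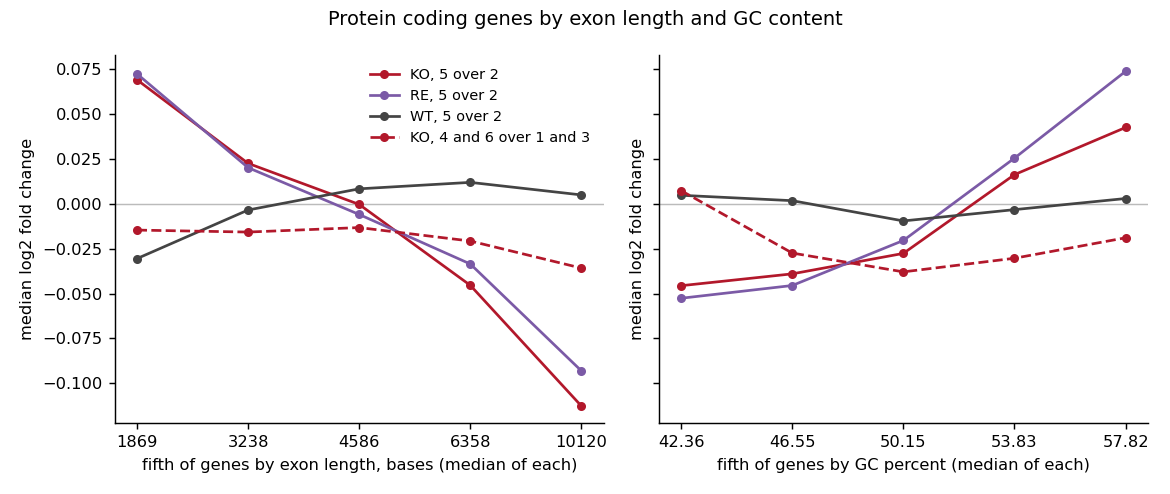
Median log2 fold change of protein coding genes in 5 equal groups by exon length (left, in bases) and by GC content (right, in percent) for 4 comparisons, at the median property of each group. KO and RE fall with length from about 0.07 to -0.11 and -0.09, while WT and the neighbouring KO time points stay between -0.04 and 0.01.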

How the data were processed

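RNA-seq counts per gene from 72 libraries were used, each from 1 mouse. Per the labels' protocols, epidermis was separated with dispase, and RNA was extracted with TRIzol from frozen cell pellets. Per the submitters' processing notes, reads were processed with Trimmomatic, TopHat2 2.1.1 and featureCounts on GRCm38 (mm10); the annotation and the handling of strand, multimapping and overlaps: not given in the sources used here. The deposited values are raw counts made by the authors, unnormalized. Of 46078 identifiers, 45229 matched GENCODE M21. The labels give no batch. Totals ran from 24.5 M to 95.0 M counts.

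Genes were kept by filterByExpr (minimum count 10). The main test was edgeR 4.0.16 (R 4.3.3), quasi-likelihood, with TMM factors over all 72 libraries in 18 groups and Benjamini-Hochberg adjustment over 18538 genes, with a threshold of 0.05. All adjusted p-values are from it unless another tool is named. CPM use TMM library sizes, and log2 CPM a prior count of 2. Alternatives were limma 3.58.1 voom, DESeq2 1.42.0 and the settings of the closing section. On simulated counts modelled on this comparison (18537 genes), 10, 46, 64 and 98% of 50 genes each changed 1.25-, 1.5-, 2- and 4-fold were recovered, and 5 unchanged genes were among 114 called. Changed genes aside, each gene was drawn on its own around the same mean in every group, with no outlying animal and no length trend. The simulation therefore does not measure false calls in the real data.

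The comparison and gene lists were chosen with earlier results of these data known. Genes named were the core clock list, protein coding genes called at a mean log2 CPM of at least 1 with the 12 largest increases or decreases or the 8 smallest p-values in each direction, up to 6 called members of a list, and the 6 smallest p-values of each genotype difference; other names were chosen after their values were seen. Some genes that met the rule are not reported here.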

Additional observations from a re-analysis of the deposited data

Results flagged for a closer look

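Among the genes named, 200 sets of 4 values at a KO time point were examined for a value far from the other 3, and 11 were found, 3 of them in replicate 2 of time point 5; chance gives about 1 in 20. In that library Ppif had 64.5 CPM (others 15.7 to 21.6), Exosc7 54.1 CPM (others 47.7 to 48.6) and Snrpf 21.1 CPM (others 16.6 to 17.1). In replicate 4 of time point 2, Per2 was high at 81.4 CPM (others 26.8 to 33.1), as were Dip2b at 299.3 CPM (others 204 to 215), Luc7l3 at 137.9 CPM (others 118 to 121) and Rps15a-ps4 at 14.2 CPM (others 12.2 to 12.5), and Cirbp was low at 37.8 CPM (others 59.7 to 60.4). Srsf5 had 776.1 CPM in replicate 3 of time point 5 (others 677 to 686), Rps27 had 348.4 CPM in replicate 3 of time point 2 (others 311 to 317), and Rps15a-ps4 had 18.9 CPM in replicate 1 of time point 5 (others 24.7 to 25.1).

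For 31 genes the change from time point 2 to 5 differed between KO and WT by edgeR's test of the difference (adjusted p under 0.05). The values are log2 fold changes in KO minus those in WT. Clock genes gave -2.23 for Cry1 and 2.54 for Nr1d1, each with a change called in WT. RNA-processing genes gave 0.40 for Pnn, 0.88 for Pabpn1, 1.02 for Rsrp1, 0.59 for Arglu1 and 0.46 for Clasrp. Ribosomal genes and gene copies gave 1.17 for Rps27rt, 1.14 for Rps15a-ps4, 0.67 for Rpl31-ps14, -0.83 for Tpt1-ps5, 0.50 for Rpl18 and 0.98 for Mrps34. Other increases gave 0.59 for Gm49405, 0.40 for Dus1l, 0.53 for Srp19, 0.38 for Cbx1, 1.20 for Rab4b, 2.09 for Scand1, 1.95 for Gm10382, 1.30 for Zfp771, 1.23 for Zfp579 and 3.29 for Hist1h1b. Decreases gave -0.64 for Ahnak, -0.91 for Mnt, -0.40 for Sp2, -1.07 for Sgms2, -1.08 for Fam129a and -0.85 for Sh3rf1. Zhx2 gave -0.75 and Pdxk -1.34.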

How the results depend on the processing

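The count of 284 genes for KO time point 5 against 2 became 172 without a filter on low counts, 32 with the 24 KO libraries alone, 16 with the 8 libraries alone, 2 with those 8 and a replicate block, and 485 in DESeq2. For KO time points 4 and 6 against 1 and 3, 351 became 167 without the filter, 213 with protein coding genes alone and 47 with the KO libraries alone. In WT 627 became 372 without the filter and 974 in DESeq2, in RE 183 became 103 and 328, and for the difference between KO and WT 226 became 69 and 466. For the difference between KO and RE, DESeq2 called 1 gene. RLE size factors, limma voom and the length and GC correction, which was added after the data were seen, moved each count by less than 1.5 times. Leaving out 1 library gave 33 to 605, 174 to 534, 236 to 457, 79 to 175, 73 to 439 and 0 to 0 calls in the order of these 6 comparisons.

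With a replicate block within each genotype the counts were 194, 252, 464, 104, 136 and 0. Same-numbered KO libraries of time points 2 and 5 correlated at 0.02, 0.00, 0.04 and 0.23 in their deviations, so the numbers are not taken to pair animals. Of 77 called genes named, 71 kept their call with RLE size factors, 75 in DESeq2, 66 in limma voom, 68 with the length and GC correction, 57 with the block, 20 with the KO libraries alone and 10 of 76 with the 8 libraries alone; none reversed direction. The fits on few libraries estimate the spread from fewer animals, and the cause of the other shifts was not tested. In the simulation 10% of 1.25-fold and 46% of 1.5-fold changes were recovered, which limits what can be said of small changes not called.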
